A study of Homo sapiens with 32 samples.

Results

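ERH was knocked down in 293T clones whose DGCR8 lacks the reported ERH binding site, to see which miRNA levels ERH loss still changes there. 293T is a human embryonic kidney cell line made to express the large T antigen of SV40. The members were chosen by their labels, as the 16 of 32 small RNA libraries that came from the deletion clones 30, 34, 42 and 43 (genotype DGCR8 delta103-126Q, made by prime editing). Each clone had been transfected separately with control shRNA 1, control shRNA 2, ERH shRNA 1 or ERH shRNA 2, selected with puromycin at 2 µg/ml from 24 h, and sorted on day 5 for the fluorescent marker of the vector. The counts of the 2 ERH libraries and of the 2 control libraries were summed in each clone, which gave 8 sums in 4 pairs. The same 4 shRNAs in the wild-type clones 52, 55, 57 and 67 served for comparison. All groups share the parental line, the transfection and the selection, and the labels give no difference between control and knockdown other than the shRNA. Each replicate is 1 clone, so differences between clones are part of the error. ERH mRNA and protein, the DGCR8 edit and kidney markers were not analysed here, because the table covers miRNAs. The strength of the knockdown in each clone is therefore not given. The libraries are bulk, so fewer cells with a miRNA and less of it per cell cannot be told apart.

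miRNAs are cut from the hairpins of long primary transcripts by the Microprocessor, in which the nuclease DROSHA works with the RNA-binding protein DGCR8. DICER then trims the hairpin to a duplex, and a strand of it guides an Argonaute protein to messenger RNAs that match its seed, the bases near its 5′ end. Many hairpins lie in clusters on a shared transcript. A poor hairpin in such a cluster can be cut better when a good hairpin lies beside it, and mir-15a beside mir-16 is the standard example. ERH is a small nuclear protein that binds DGCR8 near its N-terminus and is known for its part in this cluster assistance.

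The sequences below are from RefSeq (GRCh38.p14), 5′ to 3′, and show the members that the results turn on. In mature miRNAs the capitals mark the seed, bases 2 to 8. The mir-15/16 seed family is shown because 3 of the 4 members shown were called lower while the abundant mir-16 row did not pass the threshold. The family sum described below has 7 rows. mir-497 changed by -0.50 in log2, a call that held in 8 of 15 alternative runs, and its neighbour mir-195 was not called (-0.11).
hsa-miR-15a-5p: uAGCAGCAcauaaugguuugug
hsa-miR-15b-5p: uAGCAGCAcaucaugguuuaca
hsa-miR-497-5p: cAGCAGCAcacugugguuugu
hsa-miR-16-5p: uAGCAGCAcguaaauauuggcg
These share the seed AGCAGCA and differ in their 3′ parts. The mir-181 family has the seed ACAUUCA, and 3 of its 4 rows were called lower, to different degrees.
hsa-miR-181b-5p: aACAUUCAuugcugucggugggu
hsa-miR-181d-5p: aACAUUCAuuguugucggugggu
hsa-miR-181c-5p: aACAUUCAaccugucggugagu
hsa-miR-181a-5p: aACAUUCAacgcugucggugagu
The mir-29 family (seed AGCACCA) and the mir-19 pair (seed GUGCAAA) are shown because their members changed by different amounts.
hsa-miR-29c-3p: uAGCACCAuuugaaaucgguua
hsa-miR-29a-3p: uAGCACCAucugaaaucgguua
hsa-miR-29b-3p: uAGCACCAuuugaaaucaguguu
hsa-miR-19a-3p: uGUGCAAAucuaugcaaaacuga
hsa-miR-19b-3p: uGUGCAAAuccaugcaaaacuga
The pairs mir-192 with mir-215 and mir-212 with mir-132 each share a seed, and in each pair only the first was called.
hsa-miR-192-5p: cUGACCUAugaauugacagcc
hsa-miR-215-5p: aUGACCUAugaauugacagac
hsa-miR-212-3p: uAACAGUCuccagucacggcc
hsa-miR-132-3p: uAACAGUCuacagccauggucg
The mature 3p arms of mir-365a and mir-365b are the same run of letters, and the table counted the 2 rows almost alike.
hsa-miR-365a-3p: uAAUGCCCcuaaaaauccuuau
hsa-miR-365b-3p: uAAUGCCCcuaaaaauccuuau

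The hairpins of 3 clustered pairs are shown because a member of each pair fell while the row of its neighbour was not called. The mir-16 and mir-194 rows also hold copies from other transcripts, so the neighbour hairpins shown were not measured alone. Capitals mark the mature arms. Between the paired hairpins lie 57, 59 and 108 bases.
MIR15A (chr13:50049119-50049201, minus strand): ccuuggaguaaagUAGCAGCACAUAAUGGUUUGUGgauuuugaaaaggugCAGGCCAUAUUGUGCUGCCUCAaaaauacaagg
MIR16-1 (chr13:50048973-50049061, minus strand): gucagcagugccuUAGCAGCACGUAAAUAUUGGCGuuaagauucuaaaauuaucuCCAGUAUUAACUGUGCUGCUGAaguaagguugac
MIR15B (chr3:160404588-160404685, plus strand): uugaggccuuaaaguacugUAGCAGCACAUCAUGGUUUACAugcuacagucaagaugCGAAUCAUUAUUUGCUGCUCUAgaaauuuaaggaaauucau
MIR16-2 (chr3:160404745-160404825, plus strand): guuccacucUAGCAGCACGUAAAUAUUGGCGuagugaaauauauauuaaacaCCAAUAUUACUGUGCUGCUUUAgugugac
MIR192 (chr11:64891137-64891246, minus strand): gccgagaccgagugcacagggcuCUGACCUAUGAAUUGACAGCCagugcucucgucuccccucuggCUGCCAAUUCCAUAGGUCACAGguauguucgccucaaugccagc
MIR194-2 (chr11:64891355-64891439, minus strand): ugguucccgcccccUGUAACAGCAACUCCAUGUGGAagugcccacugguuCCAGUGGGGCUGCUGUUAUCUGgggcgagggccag
By GENCODE release 29 MIR15A overlaps an exon of the noncoding gene DLEU2 and MIR16-1 an intron of it. MIR15B and MIR16-2 lie in an intron of SMC4, and MIR192 and MIR194-2 in exons of the lincRNA MIR194-2HG.

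The 16 deletion libraries held between 1837297 and 2818603 miRNA counts, with 727 to 855 of the 1513 rows detected, and the sums between 3981951 and 5634120. A row of the table joins both arms of a hairpin and all copies of it, so mir-16 has a single row fed by MIR16-1 and MIR16-2. The mir-194 row is likewise fed by MIR194-1 and MIR194-2. Levels are given as CPM, counts relative to library size after TMM scaling, and always in the order of clones 30, 34, 42 and 43. Each RNA sample had received spike-in RNAs in proportion to its total RNA. The log2 ratio of miRNA to spike-in counts was 7.71, 6.97, 6.43 and 7.01 under control shRNAs and 7.31, 7.15, 6.97 and 7.09 under ERH shRNAs. It changed by -0.40, 0.18, 0.54 and 0.085, a mean of 0.10 ± 0.39 (SD, n = 4), smaller than its SD (exact sign-flip permutation over 16 arrangements, two-sided, p = 0.625, where 0.125 is the smallest possible). Clone 30 went down and the other 3 went up. Changes below are relative to the TMM scale, on which the median row moved by 0.012 in log2. On the spike-in scale the median moved by 0.30 and on the scale of total miRNA counts by 0.20, so every change is higher by about that much there.

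ERH knockdown still changed miRNA levels without the contact site. Of 633 rows tested, 65 passed an adjusted p under 0.05 (10.3%), 27 of them higher (4.27%) and 38 lower (6.00%, edgeR quasi-likelihood test with the clone as a block, Benjamini-Hochberg). The lower rows had a median of 623 CPM and the higher ones a median of 43.2 CPM, both above the 22.2 CPM over all rows tested. As a share of all miRNA counts, the 38 lower rows went from 13.9%, 11.1%, 12.4% and 13.3% (clones 30, 34, 42 and 43) to 9.40%, 7.53%, 9.71% and 8.26%, and the 27 higher rows from 0.123%, 0.198%, 0.144% and 0.155% to 0.231%, 0.322%, 0.219% and 0.302%. The mir-16 row alone held 17% ± 1.45 (SD, n = 4) of the counts under control and 17.6% ± 0.87 (SD, n = 4) under ERH shRNAs. All 4 clones moved down in 106 rows (16.7%) and up in 114 (18.0%). The threshold fell between mir-320b, at 0.59 ± 0.17 (SE, adjusted p = 0.0485 by edgeR), and mir-3146, at 0.65 ± 0.19 (SE, adjusted p = 0.0506 by edgeR). The count depended on the clones, with 119 calls without clone 34, 30 without clone 30 and 38 without clone 42, and 13 in a fit without the clone block. On the spike-in scale 85 were higher and 17 lower, and on the total scale 86 and 23.

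**Figure D1:**
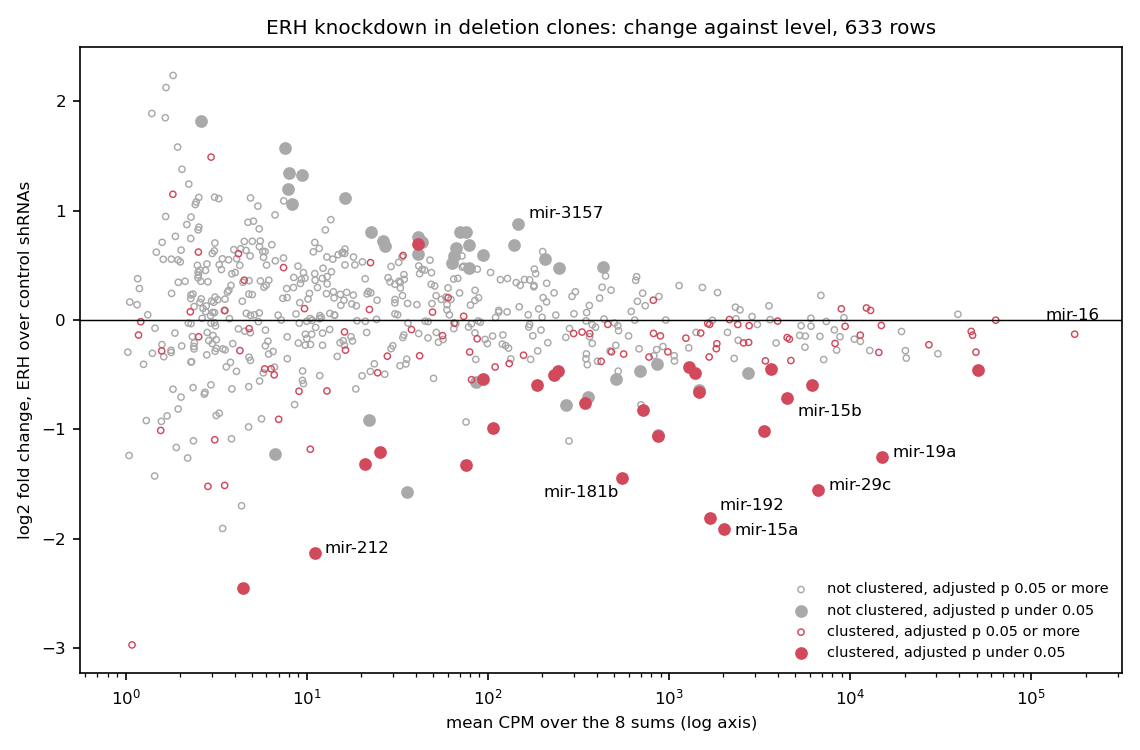
Each point is 1 of the 633 rows tested, with its mean CPM over the 8 sums on the log axis and its log2 fold change with ERH shRNAs on the other; filled points passed an adjusted p under 0.05, and red marks clustered rows. The abundant called rows mir-15a, mir-192, mir-29c and mir-19a lie far below 0, while mir-16, the most abundant row, lies near 0.

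Hairpins known for cluster assistance were the first group. This list and those below were chosen with earlier results of these data known, so their counts are descriptions and not tests. The list held mir-15a, mir-15b, mir-181b, mir-181d and mir-451a. Of the 5, 4 were called lower, against 6.00% of all rows tested. The list median was -1.33 against 0.012 over all rows (-1.04 against 0.30 on the spike-in scale). mir-15a, which represses BCL2 and is deleted in many chronic lymphocytic leukaemias, stood at 3675, 2545, 2783 and 3701 CPM under control and at 941, 586, 1085 and 804 CPM under ERH shRNAs. Every knockdown sum lay below every control sum, and the fitted change was -1.91 ± 0.14 in log2 (SE, adjusted p = 1.38e-05 by edgeR). mir-15b, from the SMC4 intron, went from 5932, 4935, 5830.0 and 5506 to 3314, 3523, 3500.3 and 3211 CPM, -0.71 ± 0.10 in log2 (SE, adjusted p = 0.00129 by edgeR), again with no overlap. Its call was lost on the spike-in scale, where the change was -0.42. mir-181b, which tunes immune receptor signalling, went from 763, 803, 746 and 928 to 285, 285, 271 and 352 CPM. Its 4 changes were the most alike of the rows shown, from -1.49 to -1.40, with a fitted value of -1.44 ± 0.10 (SE, adjusted p = 1.38e-05 by edgeR). mir-181d, beside mir-181c in an intron annotated to NANOS3, went from 89, 74.2, 153 and 118 to 44, 28.5, 50.2 and 47.6 CPM, -1.33 ± 0.14 in log2 (SE, adjusted p = 0.000205 by edgeR). mir-451a, an erythroid miRNA that is cut by AGO2 in place of DICER, was scarce in these cells. It stood at 9.31, 30.8, 17.4 and 3.17 CPM under control and 4.0, 3.63, 11.2 and 4.36 under ERH shRNAs, lower in 3 of 4 clones and higher in clone 43 (-1.18 ± 0.46, SE, adjusted p = 0.115 by edgeR).

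As a list their helpers moved less. The rows mir-16, mir-144, mir-181a and mir-181c all lay below 0, with a list median of -0.33. Of these 4 rows 1 was called lower, against 6.00% of all rows tested. mir-144 was at -0.45 and was not called. The mir-16 row stood at 226996, 169825, 156742 and 176155 CPM under control and 179106, 158808, 158478 and 164851 CPM under ERH shRNAs, -0.13 ± 0.096 in log2 (SE, adjusted p = 0.394 by edgeR), and took the opposite sign on the spike-in scale, at 0.16. The mir-181a row was at -0.20 ± 0.11 (SE, adjusted p = 0.246 by edgeR) and also changed sign there. The called row was mir-181c, from 161, 173, 296 and 259 to 134, 84.5, 223 and 163 CPM, -0.59 ± 0.14 in log2 (SE, adjusted p = 0.0277 by edgeR). That call was lost on the spike-in and total scales and without clone 42 or 43.

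Outside that list, the rows with the largest decreases were again mostly clustered. mir-192, a p53-induced miRNA abundant in kidney and liver, stood at 5147, 1836, 1924 and 1647 CPM under control and 1220.3, 557, 615 and 469.6 CPM under ERH shRNAs. The control level of clone 30 was well above the others, and the 4 changes were nonetheless close, at -2.08, -1.72, -1.64 and -1.81 (-1.81 ± 0.11, SE, adjusted p = 5.25e-06 by edgeR). mir-29c, which represses collagen messages, went from 12478, 8446, 10142 and 8585 to 3623, 2762, 4809 and 2545 CPM (-1.56 ± 0.13, SE, adjusted p = 2.81e-05 by edgeR), with clone 42 changing least. mir-19a, a member of the mir-17-92 transcript, went from 28183, 13518, 17345 and 26215 to 10763, 5826, 10654 and 8155 CPM (-1.25 ± 0.14, SE, adjusted p = 0.000246 by edgeR), and clone 42 again changed least. mir-425, from an intron of DALRD3, went from 4245, 3843, 4492 and 5341 to 2446, 1556, 2288 and 2692 CPM (-1.02 ± 0.11, SE, adjusted p = 0.000205 by edgeR). These 4 had no overlap between control and knockdown sums. mir-365a and mir-365b both had fitted changes of about -1.06 and no overlap. Their counts cannot be told apart, since the printed 3p arms are identical, so they stand for 1 signal, 887, 1216, 1659 and 952 CPM under control against 539.8, 506, 738 and 452 CPM in the mir-365a row.

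Scarcer rows fell as far. mir-212, which is induced by CREB in neurons, had the largest called decrease of the rows with a mean of at least 10 CPM, from 18.6, 18.4, 16.2 and 18.8 to 3.75, 4.40, 4.69 and 3.60 CPM, -2.13 ± 0.23 in log2 (SE, adjusted p = 0.000205 by edgeR). The knockdown sums held as few as 15 counts. mir-1306, from the DGCR8 transcript itself, went from 27.2, 46.7, 35 and 32.7 to 12.5, 14, 20.8 and 14 CPM (-1.21 ± 0.19, SE, adjusted p = 0.00285 by edgeR). mir-449c, a relative of mir-34 known from ciliated cells, went from 25.4, 40.9, 18.8 and 34.5 to 14, 11.7, 7.37 and 14.6 CPM (-1.32 ± 0.20, SE, adjusted p = 0.00201 by edgeR). mir-7974, in an intron of ZNF653 and without a clustered neighbour, went from 17.3, 41.9, 54.8 and 103.2 to 7.0, 13.6, 21.9 and 26.7 CPM (-1.58 ± 0.17, SE, adjusted p = 0.000205 by edgeR). Its control level ranged widely and its groups overlapped across clones, but it dropped within each clone. The calls of mir-449c and mir-7974 were lost without the clone block. Of the 38 lower rows, 11 were called under every alternative run that tested them. These were mir-15a, mir-19a, mir-29c, mir-181b, mir-181d, mir-192, mir-212, mir-365a, mir-365b, mir-425 and mir-1306.

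**Figure D2:**
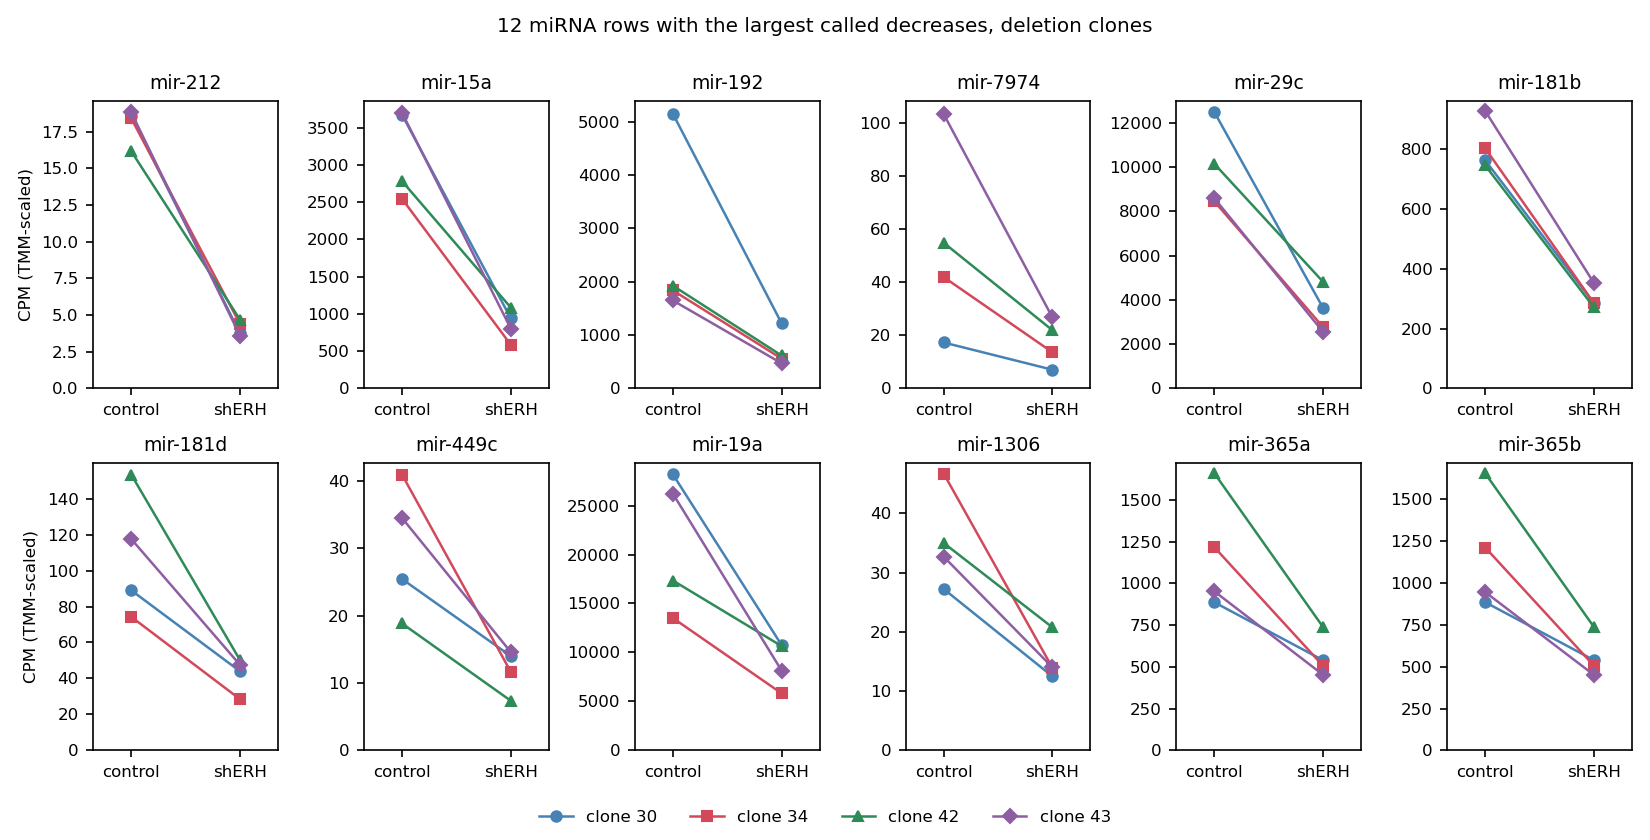
Levels in CPM (linear axes from 0) of the 12 rows with the largest called decreases, with 1 line per clone from its control sum to its ERH shRNA sum. All 48 lines go down, and in mir-7974 alone do the control and knockdown levels overlap.

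Ratios of 2 rows with hairpins on a shared primary transcript need no scaling, because both are counted in the same library. Some of these rows, such as mir-16, mir-194, mir-181a, mir-29b and mir-92a, also hold copies from other transcripts. A change at such a copy would move the ratio too. For 14 such ratios the log2 change with ERH shRNAs was taken in each clone. The ratio of mir-15a to mir-16 was -5.95, -6.06, -5.82 and -5.57 under control shRNAs and -7.57, -8.08, -7.19 and -7.68 under ERH shRNAs, a change of -1.62, -2.02, -1.37 and -2.11 with a mean of -1.78 ± 0.34 (SD, n = 4). The ratio of mir-192 to mir-194 changed by -1.61, -1.48, -1.31 and -1.61, or -1.50 ± 0.14 (SD, n = 4). mir-192 fell, as above, and mir-194 was at -0.31 ± 0.11 (SE, adjusted p = 0.0856 by edgeR). The ratio of mir-212 to mir-132 changed by -1.99 ± 0.50 (SD, n = 4) and that of mir-1306 to mir-3618 by -1.79 ± 0.42 (SD, n = 4). While mir-1306 fell, mir-3618, in exon sequence of DGCR8, went from 18.6, 36.8, 25.1 and 26.4 to 25, 30.4, 50.5 and 59.9 CPM, up in 3 of 4 clones and not called (adjusted p = 0.119 by edgeR). Smaller shifts were seen for mir-181b to mir-181a at -1.24 ± 0.17, mir-425 to mir-191 at -0.88 ± 0.29, mir-424 to mir-503 at -0.61 ± 0.18 and mir-15b to mir-16 at -0.58 ± 0.17 (SD, n = 4 each). These 8 ratios dropped in 4 of 4 clones, as did mir-29a to mir-29b (-0.38 ± 0.37) and mir-96 to mir-182 (-0.28 ± 0.20, SD, n = 4 each). mir-29a to mir-29b was nearly flat in clone 43, at -0.0064. With ERH shRNA 2 against control shRNA 2, mir-96 to mir-182 dropped in 2 of 4 clones. In that comparison mir-15b to mir-16, mir-424 to mir-503 and mir-29a to mir-29b dropped in 3 of 4. The remaining 4, mir-451a to mir-144, mir-92a to mir-17, mir-27b to mir-23b and mir-222 to mir-221, went both ways. With 4 clones the exact sign-flip permutation test cannot go below p = 0.125, the value of each ratio that dropped in all clones (two-sided, adjusted p = 0.175 over the 14), so no ratio can pass the threshold on this test. The same changes in wild-type clones lay between -2.25 and -1.08 for mir-192 to mir-194 and between -1.62 and -0.76 for mir-15a to mir-16. The largest genotype difference was that of mir-1306 to mir-3618, -1.79 against -1.09 in wild type, without overlap. It reached the smallest possible p of the exact permutation over 70 arrangements (two-sided, p = 0.0286), which adjusts to 0.400 over the 14 ratios. Both hairpins lie on the DGCR8 transcript, which was itself edited in the deletion clones. An effect of that edit on the transcript and one of the lost contact site cannot be told apart here.

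**Figure D3:**
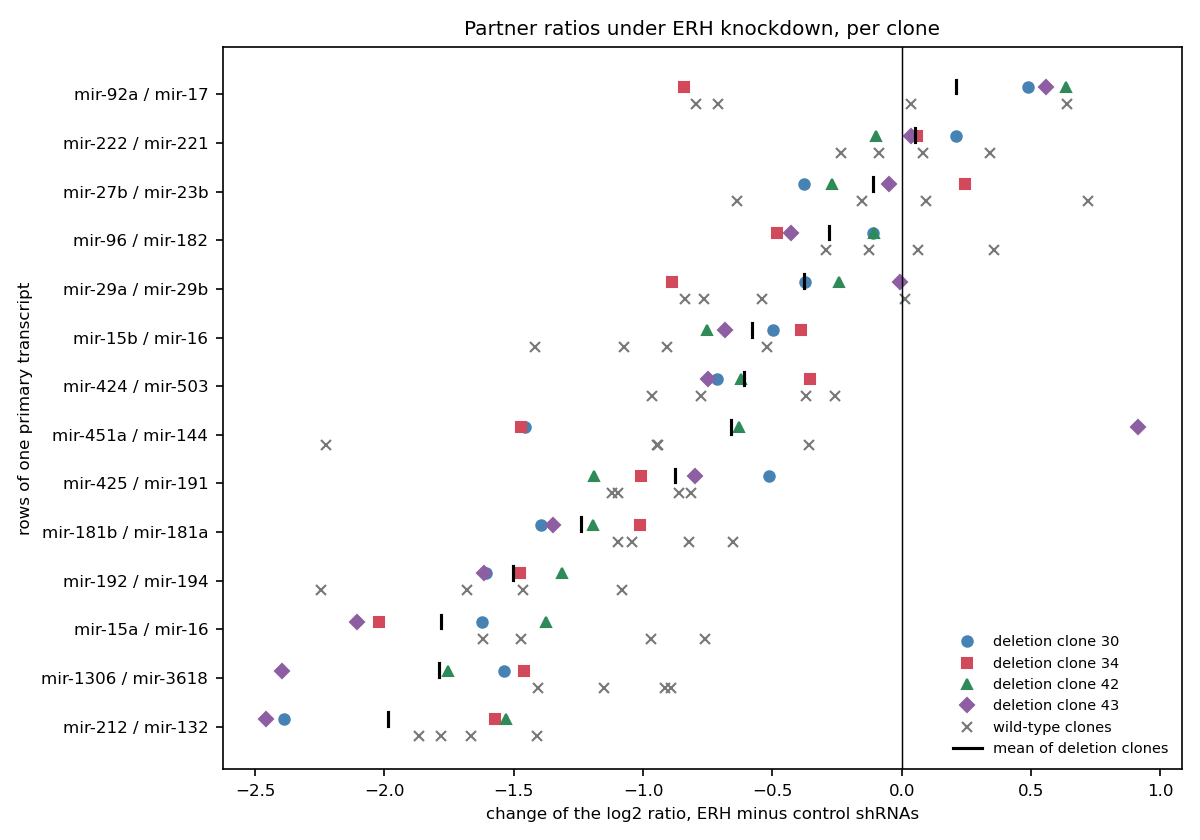
Change of the log2 ratio with ERH shRNAs, for 2 rows with hairpins on a shared transcript. It is shown for each deletion clone (coloured), their mean (bar) and each wild-type clone (cross). The deletion clones lie left of 0 for 10 of the 14 ratios, and for mir-1306 to mir-3618 every deletion clone lies left of every wild-type clone.

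Clustered rows, those with a hairpin within 10 kb of another tested row on the same strand, made up 117 of the 633. Of these 26 were called lower and 1 higher, against 12 called lower and 26 called higher among the other 516. These groups were not matched for level. The clustered median was -0.28 and the median of the rest 0.098. On the spike-in scale these were 0.016 and 0.38, so that only the distance from the other rows, not the sign, was the same on both scales. Relative to all rows the clustered median was -0.29 with TMM, -0.28 with spike-ins and -0.24 with the GC correction. The gap was present in each clone, with clustered medians of -0.28, -0.28, -0.18 and -0.28 and medians of the rest between 0.068 and 0.12 (over the 594 rows tested in both genotypes). Among 53 clustered places the median lay below 0 in 45, and in 36 every row did. At least 1 row was called lower at 23 places, but at only 2, mir-181c with mir-181d and mir-374b with mir-421, was every row called.

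Within clusters the decrease was uneven. The counts of lower calls in the lists below stand against 6.00% of all rows tested. In the mir-17-92 transcript and its paralogues 2 of 12 tested rows were called lower, mir-19a and mir-19b (-0.46 ± 0.11, SE, adjusted p = 0.0327 by edgeR). The call of mir-19b was lost on both other scales and without clone 30 or 43. The abundant rows mir-92a, mir-20a, mir-93 and mir-25 of these transcripts lay between -0.29 and -0.0015 and were not called. In the mir-29 group mir-29a fell by 0.59 ± 0.10 (SE, adjusted p = 0.0048 by edgeR), a call lost on the spike-in scale, where it stood at -0.30, and mir-29b stood at -0.22 ± 0.13 (SE, adjusted p = 0.312 by edgeR). Of the 4 hairpins in FTX, a noncoding gene of the X inactivation centre, mir-374b (-0.82 ± 0.11) and mir-421 (-0.46 ± 0.12) were called lower (SE, adjusted p = 0.00115 and 0.0365 by edgeR). Of the 8 in CLCN5, mir-502 (-0.99 ± 0.22) and mir-532 (-0.66 ± 0.10) were called lower, while the others lay between -0.32 and 0.20. Of 5 rows in the X-linked mir-424 cluster, mir-424 and mir-450a were called lower, at -0.43 ± 0.12 and -0.54 ± 0.13 (SE). In the mir-23-27-24 clusters mir-27b (-0.45 ± 0.12) was called, and in the mir-34 and mir-449 list mir-34a (-0.49 ± 0.12) was called beside mir-449c. The calls of mir-374b and mir-532 were lost on the spike-in scale, and those of mir-421, mir-424, mir-450a, mir-27b and mir-34a were lost on both other scales and each also without clone 30, 42 or 43. The call of mir-502 was lost without clone 42. The mir-34a level differed greatly between clones, 6566, 197, 2314 and 4119.7 CPM under control, with clone 34 far below the rest. No row of the mir-183 cluster (3 tested) or the mir-30 family (5 tested) passed, and of let-7 and its partners 1 of 14 did, mir-99a at -0.48 ± 0.13 (SE, adjusted p = 0.0371 by edgeR), a call lost on both other scales and without clone 42 or 43, and a share of its list near that of all rows. All 14 rows listed as solitary and abundant, mir-148a and mir-103a among them, were uncalled, with a median of -0.13. Of these mir-7 has a hairpin within 10 kb of mir-1179 and so was counted as clustered above.

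Because miRNAs with a shared seed can act on the same messages, summed family levels were also described. The mir-192/215 sum went from 5226, 1924, 1954 and 1690.2 to 1269, 636, 647 and 520.4 CPM, a change of -1.73 ± 0.21 (SD, n = 4), with mir-192 making up 97.8% of it. The mir-29 sum changed by -0.95 ± 0.19, the mir-19 sum by -0.62 ± 0.30 and the mir-181 sum by -0.42 ± 0.19 (SD, n = 4 each), all lower in 4 of 4 clones. The mir-15/16 sum changed by -0.16 ± 0.15 (SD, n = 4), with the mir-16 row making up 94.0% of it. The mir-132/212 sum, 97.9% mir-132, changed by -0.15 ± 0.28 (SD, n = 4) and dropped in 2 of 4 clones.

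The 27 higher rows were less abundant than the lower ones, with a median of 43.2 CPM, and 1 of the 27 was clustered (mir-3176). mir-3157, from an intron of ENTPD1-AS1, went from 94.4, 102.9, 66.9 and 153 to 153, 187, 136 and 287 CPM, up in every clone by 0.87 ± 0.12 in log2 (SE, adjusted p = 0.00115 by edgeR), although the levels of different clones overlapped. mir-580, from an intron of LMBRD2, went from 51.8, 56.6, 38.9 and 72.9 to 80.5, 90.3, 75.7 and 139 CPM (0.80 ± 0.13, SE, adjusted p = 0.00345 by edgeR), with no overlap. These 2 kept their calls in every alternative but the fit without the clone block. mir-4504 went from 14.8, 17.4, 9.42 and 25.2 to 22, 34.6, 21.4 and 36.4 CPM (0.81 ± 0.18, SE, adjusted p = 0.022 by edgeR), a call lost without clone 30 or 42. mir-3187 had the largest fitted rise of those named, 1.12 ± 0.29 (SE, adjusted p = 0.0365 by edgeR), but clone 34 hardly moved, from 25.6 to 26.4 CPM, while clone 43 went from 4.76 to 18.2. Its call was lost without clone 30, 42 or 43. The other 8 named rows, mir-1285, mir-760, mir-3150a, mir-320d, mir-3176, mir-2110, mir-548l and mir-1255b, rose by 0.67 to 0.80. Their calls were lost without clone 30 in 8 of 8 and without the clone block in 8 of 8, and mir-320d has near-identical family members, so its value is uncertain to the extent that reads were split among them, which was not tested. All 27 were also called on the spike-in and total scales, where rises are larger, and none was called without the clone block.

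**Figure D4:**
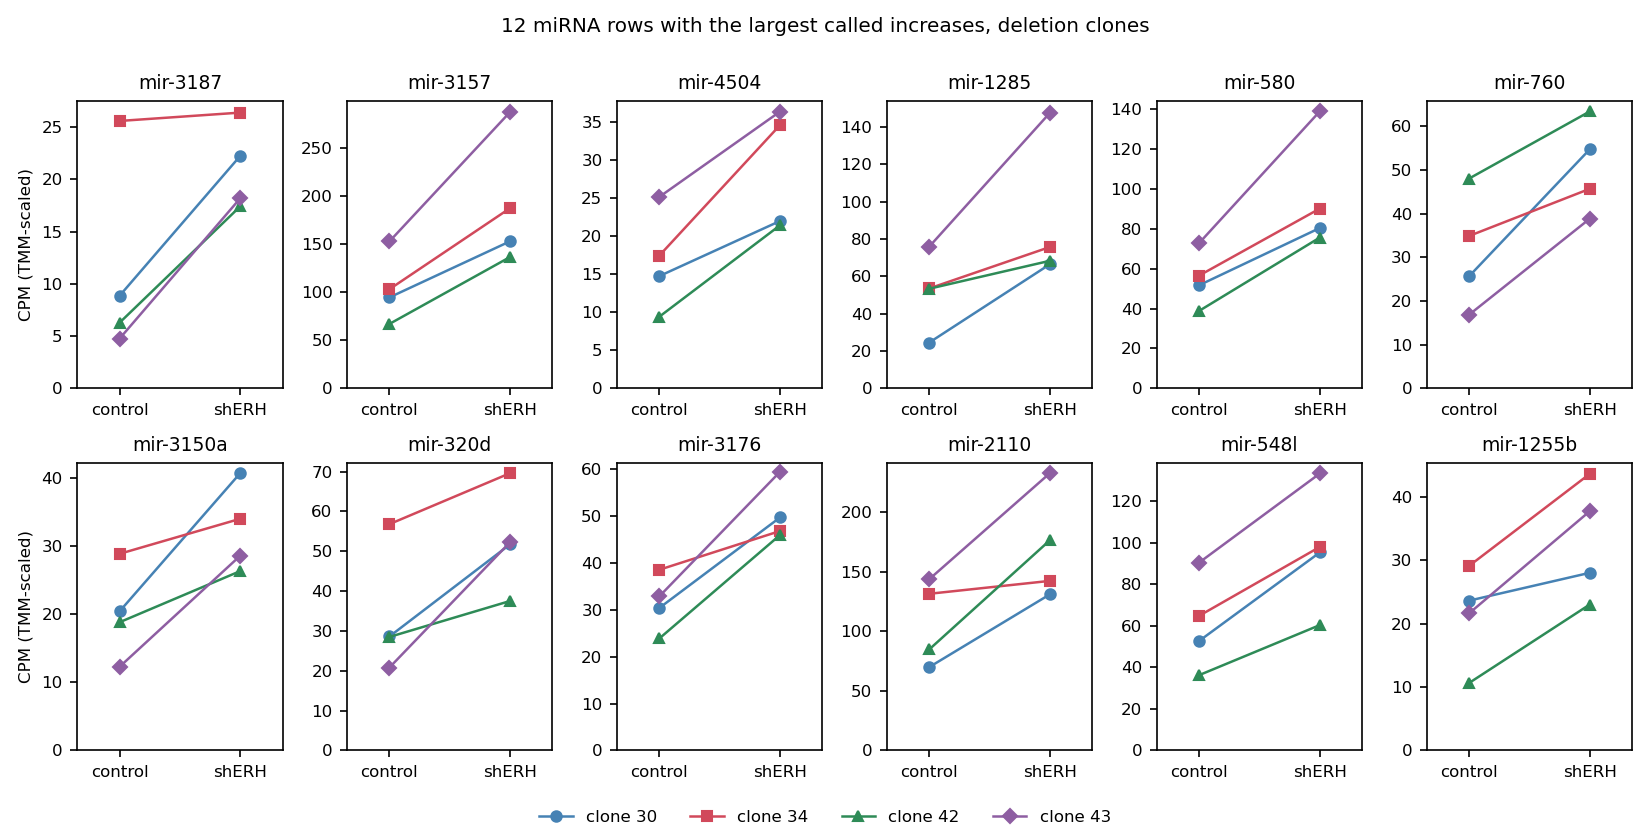
Levels in CPM (linear axes from 0) of the 12 rows with the largest called increases, with 1 line per clone from its control sum to its ERH shRNA sum. All 48 lines go up, the levels of control and knockdown overlap across clones in 10 of the 12 rows (not in mir-580 and mir-3176), and clone 34 is nearly flat for mir-3187 and mir-2110.

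Hairpins that bypass the Microprocessor were listed as a contrast. mir-320a and mir-484 are made from capped precursors, and mir-877 and mir-1226 are mirtrons, released by splicing. These 4 of 12 listed rows were tested, and none was called, with a median of 0.38. The median was 0.67 on the spike-in scale and 0.56 on the total scale, against 0.30 and 0.20 over all rows. Of the mir-320 family the list took only mir-320a, while mir-320b (0.59) and mir-320d were called higher. mir-320a stood at 774, 1079.6, 1007 and 1193 CPM under control and 1209, 1015, 1181 and 1657 CPM under ERH shRNAs (0.31 ± 0.13, SE, adjusted p = 0.136 by edgeR). In mir-320a, mir-484 and mir-1226 clones 30, 42 and 43 went up and clone 34 went down. mir-877 went up in 4 of 4 clones (0.58 ± 0.20, SE, adjusted p = 0.0844 by edgeR).

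The mir-548 family, which arose from a DNA transposon, had the largest difference between genotypes among the lists by median (interaction median -0.67), which was not tested for the list. In deletion clones 2 of its 50 tested rows were called higher, mir-548h (0.48 ± 0.11, SE, adjusted p = 0.0213 by edgeR) and mir-548l (0.68 ± 0.13, SE, adjusted p = 0.00869 by edgeR), about the share of all rows called higher (4.27%). Both calls were lost without clone 30, and that of mir-548h also without clone 43. The family median was 0.17 against 0.012 over all rows, and 15 of the 50 rows lay below 0 (30.0%), against 49.0% of all rows tested. In wild-type clones 28 of 47 were called higher, with 20.9% of all rows called higher there, and the median was 0.98. The difference between genotypes passed the threshold in no row. At an unadjusted p under 0.05 it differed in 24 of the 50, against 127 of 667 rows in all (19.0%). By clone, the family median was 0.17, 0.41, 0.065 and 0.038 in deletion clones and 0.33, 0.97, 1.33 and 1.08 in wild-type clones 52, 55, 57 and 67, so clone 34 of the deletion clones lay above clone 52. mir-548t, for example, stood at 79.7, 77, 93.4 and 105 CPM under control and 78, 90.6, 80.2 and 104 under ERH shRNAs in deletion clones (-0.0086 ± 0.13) and was at 1.13 in wild type.

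Set beside wild type, most called rows moved the same way in both genotypes. No library is shared between the 2 comparisons. In wild-type clones 192 of 613 rows were called (31.3%), 128 higher and 64 lower (10.4%). This split depended on the processing, with 170 higher and 11 lower on the spike-in scale, 184 and 27 on the total scale, 110 and 117 by DESeq2, and 75 and 104 with the GC correction. Of the 38 rows lower in deletion clones 37 had the same sign in wild type and 29 were called there. Of the 27 higher rows all 27 had the same sign and 20 were called. Over all rows tested in both, 460 of 594 had the same sign. The median wild-type change was -1.04 for the 38 and 1.07 for the 27. mir-15a stood at -1.57 in wild type against -1.91 in deletion clones, mir-29c at -1.15 against -1.56, mir-192 at -2.07 against -1.81 and mir-15b at -1.34 against -0.71. Among higher rows mir-3157 was at 1.61 against 0.87 and mir-3176 at 1.89 against 0.69. These values are on the TMM scale. On the spike-in scale the median row moved by 0.71 in wild type and by 0.30 in deletion clones. On the total scale it moved by 0.43 and 0.20, so the size of the differences between genotypes depends on the scale. The interaction, which tests these differences, passed the threshold in 0 of 667 rows (edgeR), with 127 at an unadjusted p under 0.05 and 19 by DESeq2. It passed in 35 rows without wild-type clone 52 and 3 without wild-type clone 67. The 5 rows with the smallest p were mir-3144, mir-548t, mir-579, mir-15b and mir-548aa (each adjusted p = 0.0851 by edgeR). mir-15b fell more in wild type, with a difference of 0.71, and the other 4 were higher there, with differences between -1.13 and -1.04. By this test no single row was shown to respond differently in the 2 genotypes.

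**Figure D5:**
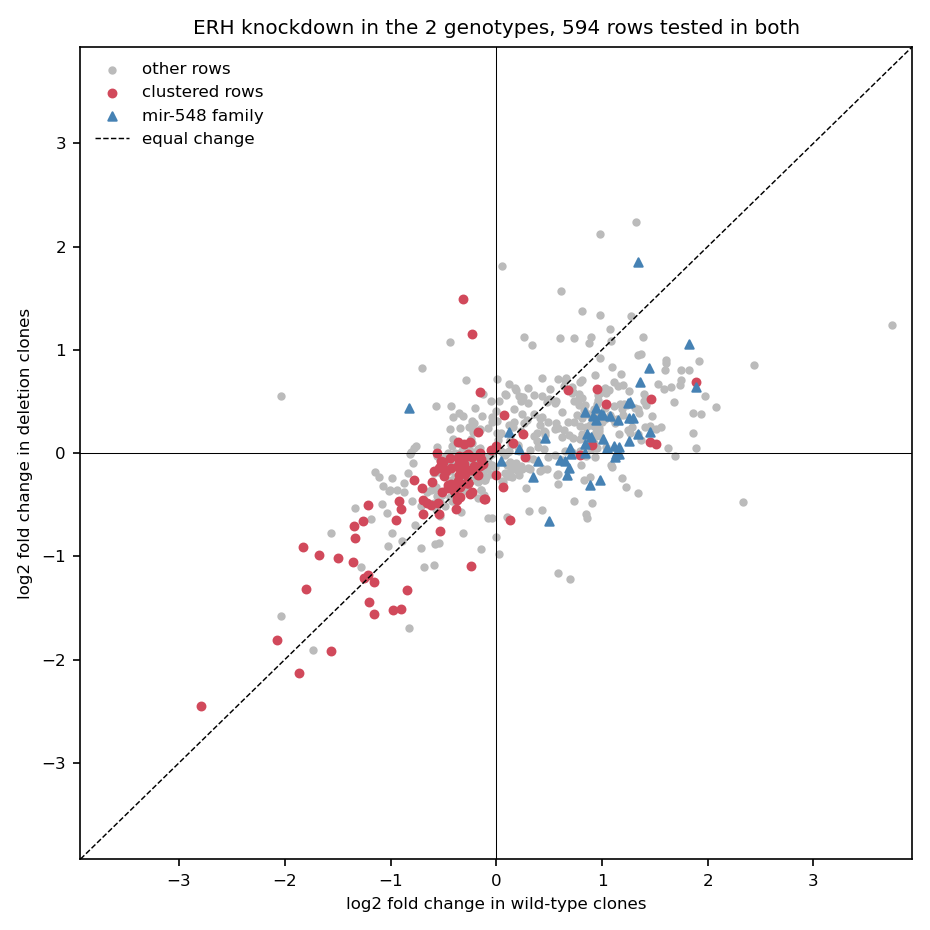
Log2 fold change with ERH shRNAs in wild-type clones (horizontal) against deletion clones (vertical) for the 594 rows tested in both, with the dashed line at equal change. Clustered rows (red) lie mostly at the lower left, and most mir-548 rows (triangles) lie right of 0 in wild type and nearer to 0 in deletion clones.

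Each ERH shRNA was also fitted alone, since an effect of a single shRNA can be off-target. The 2 fits share the control sums, so their calls are not independent. ERH shRNA 1 gave 29 higher and 39 lower rows of 605, and ERH shRNA 2 gave 8 and 25 of 602 (11.2% and 5.48% of rows called). With shRNA 1 the spike-in scale gave 64 higher and 16 lower, and the total scale 63 and 28. With shRNA 2 they gave 10 and 11, and 30 and 16. Of the 38 lower rows 33 were called with shRNA 1 (6.45% of all rows were lower), 23 with shRNA 2 (4.15%) and 22 with both. Of the 27 higher rows these counts were 19 (4.79%), 8 (1.33%) and 5. Against separate controls, shRNA 1 with control 1 and shRNA 2 with control 2, all 38 lower and all 27 higher rows had the same sign with both, against 68.6% of the 532 rows tested in both. The 65 rows were called on the sums of these same libraries, so this agreement was largely fixed by their choice. mir-15a stood at -2.03 with shRNA 1 and -1.82 with shRNA 2, and mir-192 at -1.84 and -1.77. The call count for shRNA 1 was 36, 31 or 36 without clone 30, 42 or 43, and that for shRNA 2 was 20 without clone 43. Control shRNA 2 against control shRNA 1, the background measured the same way, gave 0 calls of 548 rows (edgeR), with 71 at an unadjusted p under 0.05 and 11 by DESeq2. Without clone 42 it gave 16. mir-15a was at -0.47 and mir-192 at -0.12 in that comparison.

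The lower rows shared features that the test had not used. Of the 38, 26 were clustered (68.4%), against 18.5% of all rows tested. The rows were not matched for level, and the 38 had a median of 623 CPM against 22.2 CPM over all rows. The 38 also count mir-365a and mir-365b, which stand for 1 signal, as separate rows. Their hairpins were predicted to fold less stably, with a median of -0.41 kcal/mol per base against -0.47 over all rows, and 28.9% against 25.8% unpaired bases (RNAfold). The 27 higher rows had medians of -0.49 kcal/mol per base and 25.4%. GC content was 49.1% in lower, 51.9% in higher and 48.1% in all hairpins. Introns of protein-coding genes held 36.8% of lower, 44.4% of higher and 50.1% of all rows. At 15 of the 40 places with 2 rows, exactly 1 was called lower, and at these the called row was the 5′ one at 6 and the 3′ one at 9. The uncalled row also lay below 0 at these places, except for mir-6500 (0.36), mir-1250 (0.097) and mir-3618 (0.59). The fold did differ within such pairs. At 13 of the 15 places each row had 1 hairpin with a RefSeq entry. The called row had the less stable hairpin at 11 of 13 and the larger unpaired share at 10 of 13. MIR15A had -0.37 kcal/mol per base and 42.2% unpaired bases against -0.42 and 25.8% for MIR16-1, and MIR192 had -0.35 and 41.8% against -0.58 and 20.0% for MIR194-2. In stability MIR29C was an exception, at -0.40 against -0.38 for its neighbour MIR29B2, and MIR99A beside MIRLET7C was the other. MIR212 hardly differed from MIR132, at -0.454 against -0.458. In unpaired share the exceptions were MIR212 (29.1% against 32.7% for MIR132), MIR15B (28.6% against 35.8% for MIR16-2) and MIR338 (28.4% against 29.2% for MIR1250). These counts describe rows chosen by the knockdown, the pairs share the rows mir-16 and mir-29b, and no test was made of them.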

How the data were processed

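The deposited table holds raw read counts per miRNA precursor name and per spike-in RNA, with 1 column per library, per the file headers. SAMtools is named in the submitters' processing notes, and the aligner, annotation, genome build and use of molecular identifiers are not given in the sources used here. Total RNA of 400 ng with 4 spike-ins was prepared and 100 ng went into each library, per the labels' protocols.

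Counts of the 2 libraries of each arm were summed per clone. Rows passing filterByExpr were scaled by TMM and tested with edgeR 4.0.16 (R 4.3.3, glmQLFit and glmQLFTest, clone as a block, Benjamini-Hochberg threshold 0.05), and the fits were tested on simulated data. The clone pairs the samples, since both arms came from the same clone. Deviations from the mean of each arm correlated at 0.60 to 0.85 within a clone and at most at -0.022 between clones (391 rows). Centring on the mean of the clones by itself pushes the values between clones below 0. In the 24 pairs of deletion libraries that share a group, counts differed beyond sampling noise (chi-square per degree of freedom at least 75.4). Ratios used a pseudocount of 0.5 counts. Positions and hosts came from GENCODE 29 (GRCh38), which matched 1454 of 1513 rows, and folds from RNAfold 2.7.2. Rows named were up to 12 per direction with the largest called change, a mean of at least 10 CPM and 1 sign in 4 of 4 clones, the most abundant rows, the ratio rows and members of the lists. The members and lists were chosen with earlier results of these data known. Alternatives were DESeq2 1.42.0, spike-in and total scaling, other filters, each library as its own sample, GC correction, no block, 1 fit over both genotypes, single shRNAs and leaving out each clone.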

Additional observations from a re-analysis of the deposited data

Results flagged for a closer look

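In 3 of 104 groups of 4 clones the highest or lowest clone stood apart by Dixon's criterion, which chance does in about 1 of 20 groups. mir-25 changed by -0.29 in clone 30, below the other 3 clones. mir-374b, called lower, changed by -0.53 in clone 30, the smallest decrease of the 4. The ratio of mir-92a to mir-17 changed by -0.84 in clone 34 while the other 3 clones went up. On the TMM scale mir-579 moved in opposite directions in all clones of the 2 genotypes, with an interaction of -1.13 in log2 (adjusted p = 0.0851 by edgeR). In deletion clones its change was 0.17 with spike-in and 0.074 with total scaling, the sign it had in wild type.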

How the results depend on the processing

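In deletion clones there were 65 calls, against 102 with spike-in and 109 with total scaling, 104 with each library as its own sample, 43 in 1 fit over both genotypes and 33 with ERH shRNA 2 alone. Without the clone block, which pairs the arms, 13 were called for the knockdown in deletion clones, 74 in wild type (192 with it), 6 for ERH shRNA 1 (68 with it) and 15 for ERH shRNA 2 (33 with it). Wild type gave 124 with a mean of at least 100 counts. The interaction gave 0, against 19 by DESeq2, 29 with total scaling, 19 without a filter, 29 with a mean of at least 100 counts, 52 with each library as its own sample and 1 with GC correction and the block. ERH shRNA 2 gave 21 with spike-in scaling and 19 with control shRNA 2 alone, and the control comparison 11 by DESeq2, an alternative chosen after seeing the data. Leaving out 1 clone gave 30 to 119 for the knockdown in deletion clones, 112 to 197 for that in wild type, 0 to 35 for the interaction, 31 to 98 for ERH shRNA 1, 20 to 32 for ERH shRNA 2 and 0 to 16 for control 2 against control 1, with the extremes of wild type at clones 52 and 57 and 126 without clone 55. With shRNA 1 against control 1 and shRNA 2 against control 2 the ratio of mir-451a to mir-144 was -2.14 and 0.71, that of mir-424 to mir-503 -0.84 and -0.36, that of mir-222 to mir-221 0.18 and -0.092, and with shRNA 1 that of mir-181b to mir-181a was -1.04. Of 89 named rows 30 changed sign under some alternative, none of them called in either setting. The cause was not tested. Low counts limit the scarce rows.

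With spike-in scaling the log2 changes of reversed sign were let-7a 0.24, let-7f 0.23, mir-132 0.17, mir-148a 0.18, mir-16 0.16, mir-17 0.074, mir-181a 0.084, mir-182 0.28, mir-183 0.25, mir-191 0.15, mir-215 0.15, mir-221 0.061, mir-222 0.11, mir-23a 0.14, mir-24 0.12, mir-25 0.19, mir-29b 0.073, mir-30a 0.015, mir-500a 0.25, mir-542 0.25, mir-548aa 0.26, mir-548e 0.21, mir-548t 0.28, mir-579 0.17, mir-660 0.079, mir-92a 0.29 and mir-93 0.15. With total scaling the log2 changes of reversed sign were let-7a 0.14, let-7f 0.13, mir-132 0.063, mir-148a 0.082, mir-16 0.057, mir-182 0.18, mir-183 0.15, mir-191 0.048, mir-215 0.046, mir-222 0.011, mir-23a 0.041, mir-24 0.021, mir-25 0.082, mir-500a 0.15, mir-542 0.15, mir-548aa 0.15, mir-548e 0.11, mir-548t 0.18, mir-579 0.074, mir-92a 0.18 and mir-93 0.048. With a mean of at least 100 counts the log2 changes of reversed sign were mir-182 0.039, mir-183 0.0074, mir-500a 0.0082, mir-542 0.0081, mir-548aa 0.014, mir-548t 0.040 and mir-92a 0.047. With each library as its own sample the log2 changes of reversed sign were mir-182 0.022, mir-548aa 0.0061, mir-548t 0.030 and mir-92a 0.019. With GC correction and the clone block the log2 changes of reversed sign were mir-183 0.018, mir-542 0.031, mir-548b -0.0069 and mir-92a 0.069. In 1 fit over both genotypes the log2 changes of reversed sign were mir-182 0.018, mir-548t 0.019 and mir-92a 0.026. With ERH shRNA 1 alone the log2 changes of reversed sign were let-7a 0.017, let-7f 0.056, mir-182 0.042, mir-183 0.038, mir-215 0.047, mir-548t 0.0076 and mir-92a 0.011. With ERH shRNA 2 alone the log2 change of reversed sign was mir-103a -0.0038. Without the clone block the log2 change of reversed sign was mir-92a 0.016. Leaving out 1 clone each gave mir-103a -0.026 to 0.11, mir-125a -0.065 to 0.18, mir-148a -0.32 to 0.020, mir-182 -0.090 to 0.048, mir-215 -0.28 to 0.044, mir-500a -0.14 to 0.054, mir-542 -0.13 to 0.028, mir-548aa -0.11 to 0.058, mir-548b -0.16 to 0.15, mir-548t -0.098 to 0.061 and mir-92a -0.094 to 0.15.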
